A study of Mus musculus with 4 samples.

Results

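The globin genes encode the protein chains of hemoglobin, and 7 of them were followed here across developing mouse molars: the alpha-type genes Hba-a1, Hba-a2 and Hba-x and the beta-type genes Hbb-bs, Hbb-bt, Hbb-bh1 and Hbb-y. They were chosen by symbol and are 7 of the 32285 genes in the deposited single-cell tables. The 4 libraries came from wild-type mice (genotype label WTB6, strain C57BL/6J in the study), 1 for each jaw, maxillary or mandibular, at E15.5 (labelled E15) and at P1 (P0/P1 in the protocol), with 6 tooth organs pooled in each. No animal carried a transgene or received a treatment, and with 1 library per stage and jaw no difference between stages could be tested against the spread between animals. After barcodes with fewer than 1000 UMIs were removed (unique molecular identifiers, which count captured RNA molecules once each), 44144 cells remained, of which 2949 were erythroid-like. Intervals in the text are exact 95% intervals, Poisson for levels and Clopper-Pearson for shares, and they cover counting error only.

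A hemoglobin molecule pairs alpha-type with beta-type chains around heme. In the mouse embryo the first red cells arise in the yolk sac, enter the blood while they still have a nucleus, and make the embryonic chains of Hba-x, Hbb-y and Hbb-bh1 beside alpha chains. Red cells that later come from the fetal liver and the bone marrow make the adult chains of Hba-a1, Hba-a2, Hbb-bs and Hbb-bt, and red cells reach a tooth germ in the blood of its vessels.

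In the mm10 build the 4 beta-type genes lie within 40693 bases of the minus strand of chromosome 7 (Hbb-bt chr7:103812524-103813996, Hbb-bs chr7:103826534-103828096, Hbb-bh1 chr7:103841637-103843164 and Hbb-y chr7:103851749-103853216). The 3 alpha-type genes lie within 20899 bases of the plus strand of chromosome 11 (Hba-x chr11:32276400-32278116, Hba-a1 chr11:32283511-32284465 and Hba-a2 chr11:32296489-32297298). Each has 3 exons in the annotated transcript that was read. The 120 bases before the RefSeq transcription start (build GRCm38.p6) are printed below to set the embryonic promoters of Hbb-y and Hba-x beside the adult ones of Hbb-bs, Hbb-bt and Hba-a1. RefSeq starts and the gene ends given above come from different annotations and need not coincide. Capitals mark the motif CACCC, the CCAAT box, the motif GATA and the TATAA box on either strand, all of them short motifs long studied in globin promoters.
Hbb-y (chr7:103853208-103853327, minus strand): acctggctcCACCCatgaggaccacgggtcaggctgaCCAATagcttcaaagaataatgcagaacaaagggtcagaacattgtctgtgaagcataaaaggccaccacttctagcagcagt
Hba-x (chr11:32276480-32276599, plus strand): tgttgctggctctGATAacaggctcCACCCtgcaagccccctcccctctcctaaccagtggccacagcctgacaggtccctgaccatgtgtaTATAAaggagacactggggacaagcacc
Hbb-bs (chr7:103827929-103828048, minus strand): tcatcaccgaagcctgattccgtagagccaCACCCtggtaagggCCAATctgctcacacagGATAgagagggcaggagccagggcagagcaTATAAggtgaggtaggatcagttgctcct
Hbb-bt (chr7:103813924-103814043, minus strand): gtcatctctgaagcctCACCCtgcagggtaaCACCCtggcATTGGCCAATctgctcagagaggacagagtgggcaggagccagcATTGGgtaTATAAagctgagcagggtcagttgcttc
Hba-a1 (chr11:32283552-32283671, plus strand): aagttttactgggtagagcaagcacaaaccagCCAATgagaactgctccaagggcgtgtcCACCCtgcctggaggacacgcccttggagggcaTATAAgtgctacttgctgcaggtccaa
Of the 7 genes, 6 matched the RefSeq promoter table. CACCC stood in all 6 windows and in 31.7% of the same 120 bases of the 32851 promoters in the table. TATAA stood in 5 of the 6, Hbb-y being the exception, and in 11.8% of all promoters. CCAAT was found in every window but that of Hba-x (21.3% of all promoters), and GATA in those of Hba-x and Hbb-bs (29.5% of all promoters). The Hbb-bt window held 2 copies of CACCC and 3 of CCAAT, where that of Hbb-bs held 1 of each. A match is a description of the letters in this window and not of factor binding.

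The tables held 10885 barcodes and 109723360 UMIs for the E15.5 maxillary molar, 7947 and 86659227 for the E15.5 mandibular, 18707 and 128812956 for the P1 maxillary, and 19401 and 139873101 for the P1 mandibular. The P1 libraries had 7131 barcodes in common, against 28 to 70 for any other pair of libraries. The 6690 shared barcodes with at least 1000 UMIs in the P1 mandibular library were therefore left out of it. The shared barcodes stayed in the P1 maxillary library. There 7129 of them had at least 1000 UMIs and made up 41.8% of all cells, and 104 were among the 548 erythroid-like cells. The adult globin levels and the results that changed most are therefore also given without the shared barcodes. In the mandibular library the same 104 barcodes had a median of 1975 UMIs, against 8646 in the maxillary library. Which library the shared barcodes came from was not settled.

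Erythroid-like cells were found by clustering each library without any globin gene and were named from other red cell genes. They numbered 825, 1217, 548 and 359 in the E15.5 maxillary, E15.5 mandibular, P1 maxillary and P1 mandibular libraries, or 8.19%, 17.6%, 3.22% and 3.55% of cells. Since 11 measured markers named the clusters, their presence there is a description. They were led by Alas2, the first enzyme of heme synthesis in red cells, at 16319, 18596, 11717 and 9174 non-globin CPM (UMIs per 1000000 UMIs of genes other than globins), against 5.30 to 14.5 in cells of other named classes. Mitochondrial genes gave a median of 0.262%, 0.2996%, 0.463% and 0.580% of UMIs in these cells, against 2.54% to 3.04% in the other named classes. Markers of other cells were not at 0. All 8 mesenchyme markers had UMIs in the erythroid-like cells of every library, with a summed level of 3054, 2265, 3703 and 5143 non-globin CPM and Col1a1 or Col3a1 as the most abundant.

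Globin RNA filled these cells. The 7 genes made up 93.7%, 94.4%, 89.8% and 85.4% of their UMIs in the same order of libraries, and over 90% of the UMIs of a single cell in 93.1%, 93.8%, 81.8% and 66.3% of them. The median erythroid-like cell held 7488 and 8678 globin UMIs in the maxillary and mandibular molar at E15.5, and 2102 and 6484 at P1. The low P1 maxillary value belonged to the cells whose barcodes were not shared, which had a median of 2194 UMIs in all. Only 418, 421, 182 and 568 UMIs of the median cell came from any other gene.

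The adult genes accounted for nearly all of this RNA at both stages. Counts are of molecules tagged at their 3' ends, so no length correction was made. Sequence near the 3' end is shared between the adult genes of a pair to different degrees and not at all by the embryonic genes, as given below, so comparisons of level between genes, the alpha to beta balance included, carry that uncertainty. Hbb-bs, the more abundant adult beta gene, took 46.2%, 47.6%, 45.9% and 44.1% of all UMIs of erythroid-like cells in the E15.5 maxillary, E15.5 mandibular, P1 maxillary and P1 mandibular libraries. Hba-a1 took 18.4%, 17.9%, 16.8% and 17.3%, and Hba-a2 14.3%, 13.96%, 12.5% and 12.4%. Hbb-bt took 14.8%, 14.98%, 14.7% and 11.6%. The order was the same in the maxillary and mandibular libraries at E15.5, with Hbb-bs first, then Hba-a1, Hbb-bt and Hba-a2. It was the same in the P1 maxillary library, while in the P1 mandibular library Hba-a2 stood above Hbb-bt. Without the shared barcodes the P1 maxillary library had 44.6% Hbb-bs, 15.7% Hbb-bt, 15.2% Hba-a1 and 11.6% Hba-a2, so that Hbb-bt stood above Hba-a1. Within globin UMIs, the change of an adult gene from E15.5 to P1 ranged on the log2 scale from -0.13 (Hba-a2) to 0.05 (Hbb-bs) in maxillary molars and from -0.22 (Hbb-bt) to 0.10 (Hba-a1) in the mandibular molar. The plot of levels by gene shows both sets of genes on 1 scale.

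**Figure D1:**
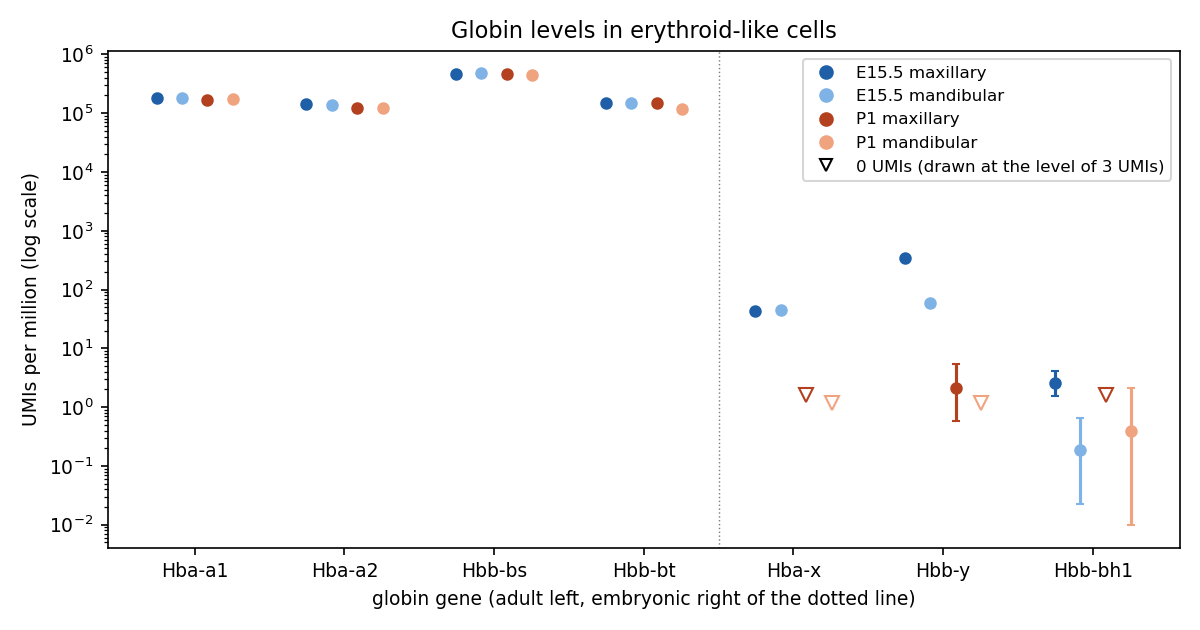
CPM of each globin gene (UMIs per 1000000 UMIs) in erythroid-like cells (log axis) in the 4 libraries, with exact 95% Poisson intervals where they are wider than the points. The 4 adult genes lie at 116256 or more in every library, and the 3 embryonic genes at 344 or less, with open triangles at the level of 3 UMIs where no UMI was counted.

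The embryonic genes were at the other end of the scale and nearly all of their UMIs were from E15.5. Hbb-y, the embryonic beta gene, had 2240 UMIs in the erythroid-like cells of maxillary molars at E15.5 and 634 in those of mandibular ones, but 4 in the P1 maxillary and 0 in the P1 mandibular. These are 344 (330.1 to 359), 58.2 (53.8 to 63.0) and 2.12 (0.578 to 5.43) CPM (UMIs per 1000000 UMIs of these cells), and a count of 0 in the last library allows up to 1.16 CPM (3 counts in the library's erythroid-like cells). Hba-x, the embryonic alpha gene, had 277 and 484 UMIs at E15.5, or 42.6 and 44.5 CPM, and 0 in both P1 libraries, which allows up to 1.59 and 1.16. Hbb-bh1, which is made earliest in yolk sac red cells, had 17, 2, 0 and 1 UMIs. The P1 libraries thus held fewer UMIs of Hbb-y and Hba-x than either E15.5 library. Most of the E15.5 UMIs were in 1 cell per library, however. The maxillary one held 2234 of the 2240 Hbb-y and 276 of the 277 Hba-x UMIs. The mandibular one held 615 of 634 and 470 of 484. Without these cells, Hbb-y was seen in 0.485% of E15.5 maxillary erythroid-like cells and 0.730% of P1 maxillary ones, so no fall is read there. The mandibular shares were 1.07% and 0%. Hbb-bh1 was at or near 0 in all but the E15.5 maxillary library, where 10 of its 17 UMIs were in a single cell.

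All 3 embryonic genes together came to 416 UMIs per 1000000 globin UMIs in maxillary molars at E15.5 and 109 in mandibular ones, against 2.36 and 0.453 at P1. The ratio of embryonic to adult globin UMIs at P1 against E15.5 was -7.46 on the log2 scale in the maxillary molar (interval -9.34 to -6.10) and -7.91 in the mandibular (-13.2 to -5.43). These ratios rested on 1 cell per E15.5 library: it held 2511 of the 2534 embryonic UMIs in the maxillary molar (99.1%) and 1086 of 1120 in the mandibular (97.0%). Without these cells, 23 and 34 embryonic UMIs remained at E15.5, or 3.78 and 3.31 per 1000000 globin UMIs, and the log2 ratios became -0.68 (-2.67 to 0.87) and -2.87 (-8.22 to -0.30). The remaining embryonic RNA of erythroid-like cells thus differed between stages by less than counting error in the maxillary molar.

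The embryonic signal sat in few barcodes, and these had a composition of their own. In all deposited barcodes, 9 held at least 100 Hbb-y UMIs, a limit set after the counts were seen, and all 9 were from E15.5, 7 maxillary and 2 mandibular. The 5 with at least 1000 UMIs held 98.0% of all Hbb-y UMIs of the cells of the E15.5 maxillary library and 95.5% of those of the mandibular. In each of these 5, Hbb-y made up 92.3% to 99.8% of beta-type UMIs, so that the adult genes Hbb-bs and Hbb-bt gave little of the beta-type RNA. On the alpha side the embryonic and adult genes were found together, with Hba-x at 13.8% to 70.0% of alpha-type UMIs and Hba-a1 and Hba-a2 giving the rest. Alpha-type genes made up 49.0% of their globin UMIs, against 34.8% and 33.7% in the erythroid-like cells of the maxillary and mandibular libraries at E15.5, and globin made up 60.3% of all their UMIs. The limit of 100 Hbb-y UMIs selects for Hbb-y, so these shares describe the barcodes and test nothing.

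The richest of them, in the E15.5 maxillary library, held 2234 Hbb-y, 276 Hba-x and 1 Hbb-bh1 UMIs beside 559 of Hba-a1, 301 of Hba-a2, 109 of Hbb-bs and 74 of Hbb-bt. The richest of the mandibular library held 615 Hbb-y, 470 Hba-x and 1 Hbb-bh1 UMIs beside 439 of Hba-a1, 229 of Hba-a2, 10 of Hbb-bs and 40 of Hbb-bt. Both were in erythroid-like clusters, while 2 of the other 3 were in unnamed clusters and the last was in a muscle cluster. RNA of other red cell genes was scarce in them, with 6 UMIs of erythroid markers over all 5. Among barcodes with at least 50% globin, which stand for red cells whatever their cluster, 3 of 1197 in the E15.5 maxillary library (0.251%, interval 0.0517% to 0.731%) and 1 of 1669 in the mandibular (0.0599%, 0.00152% to 0.333%) were of this kind. At P1 there were 0 of 1132 in the maxillary library, which allows a share of up to 0.265% (3 counts), and 0 of 655 in the mandibular, which allows up to 0.458%. The depth at P1 therefore could not show a share as low as that of either E15.5 library.

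**Figure D2:**
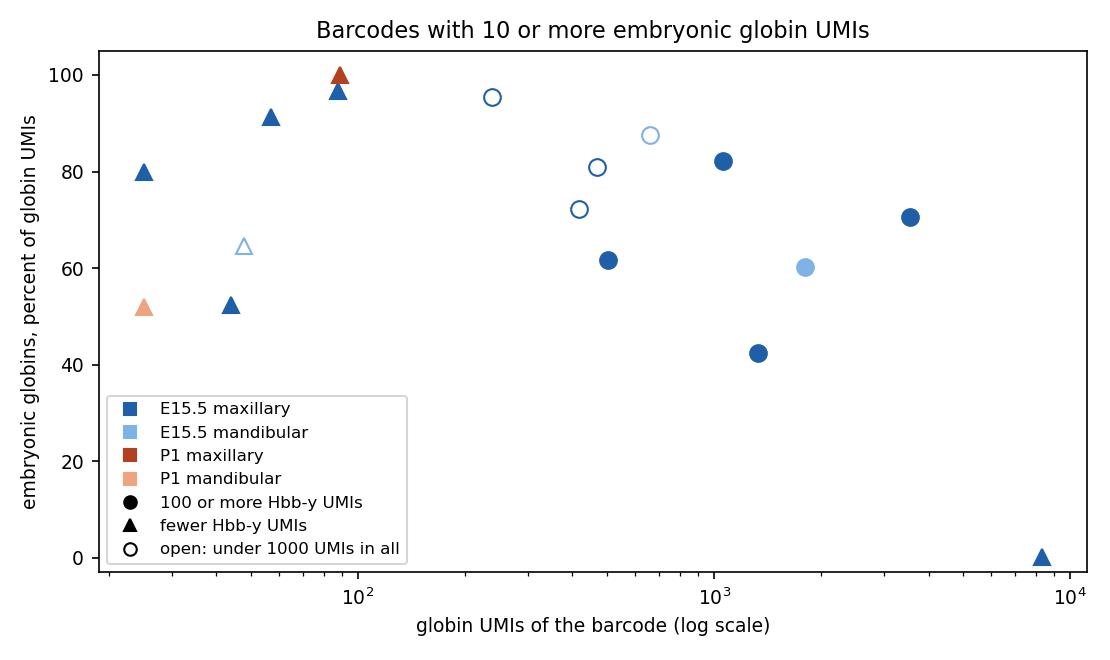
Every barcode with at least 10 UMIs of Hbb-y, Hba-x and Hbb-bh1 together, by its globin UMIs (log axis) and the percent of them that were embryonic. Circles mark barcodes with at least 100 Hbb-y UMIs, all from E15.5 and 42.5% to 95.4% embryonic, triangles mark the others, and open symbols mark barcodes with under 1000 UMIs.

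Beyond these barcodes, few Hbb-y UMIs were scattered over cells. With the barcodes of at least 100 Hbb-y UMIs left out, an Hbb-y UMI was seen in 4 of 824 (0.485%), 13 of 1216 (1.07%), 4 of 548 (0.730%) and 0 of 359 erythroid-like cells, the last of which allows a share of up to 0.836% (3 counts). In cells of other named classes, which are not known to express it, the shares were 0.574%, 0.221%, 0.00705% and 0.0142%. Median depths were 7927, 9103, 2335 and 7172 UMIs in erythroid-like cells and 10538, 13865, 4848 and 11367 in the other classes. With every cell thinned to 1000 UMIs and the richest cells kept in, 1, 1, 1 and 0 erythroid-like cells had an Hbb-y UMI. In the E15.5 maxillary library the interval of the erythroid-like share (0.132% to 1.24%) included the share of the other classes, so no expression beyond background is read from it. In the E15.5 mandibular (0.570% to 1.82%) and P1 maxillary (0.199% to 1.86%) libraries the intervals lay above the shares of the other classes.

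A ranking of genes by likeness to the embryonic share over E15.5 erythroid-like cells was planned, but a single cell held 99.9% of the variance of that share in each library. No gene is named from it.

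The share of alpha-type RNA lay between 32.5% and 34.8% of globin UMIs. Alpha-type genes made up 34.8% of globin UMIs in erythroid-like cells of maxillary molars at E15.5 (34.8 to 34.9), 33.7% in the E15.5 mandibular (33.7 to 33.8), 32.5% in the P1 maxillary (32.5 to 32.6) and 34.8% in the P1 mandibular (34.7 to 34.9). From cell to cell the medians were 34.9%, 33.7%, 31.0% and 34.6%, with the middle 90% of cells of the E15.5 maxillary library between 30.0% and 39.7%. The counting intervals of the pooled shares did not overlap between stages in either jaw, and with 1 library per stage and jaw no spread between libraries can be set beside the difference. The low P1 maxillary value came from cells whose barcodes were not shared, at 30.7%, whereas the 104 shared barcodes had 34.6%.

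The adult genes of a pair were not used in a fixed ratio. Hbb-bt took 24.3%, 24.0%, 24.2% and 20.9% of adult beta UMIs in the erythroid-like cells of the 4 libraries, in the order given above. Within the E15.5 maxillary library this share was 17.2% in the lowest of 4 equal bins of erythroid-like cells by UMIs, then 22.1%, 25.3% and 27.9% in the bins with more. In the E15.5 mandibular library the bins had 16.2%, 21.1%, 24.8% and 28.0%, and in the P1 mandibular 17.0%, 19.5%, 21.4% and 23.3%. Cells with more RNA thus had relatively more Hbb-bt in these 3 libraries. The P1 maxillary library had 24.0%, 25.7%, 27.3% and then 22.7%. Its highest bin had a median of 7879 UMIs and the others at most 2549, and its shared barcodes, with a median of 8646 UMIs, had 22.2% against 26.0% in the rest.

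The same was seen when red cells were taken as barcodes with at least 50% globin, which included the unnamed globin-rich clusters. From the lowest to the highest bin Hbb-bt went from 9.50% to 27.4% in the E15.5 maxillary library, from 9.57% to 27.4% in the E15.5 mandibular and from 6.71% to 22.4% in the P1 mandibular, and in the P1 maxillary from 17.5% through 22.9% and 25.4% to 21.8%. Spearman's rho of the share with UMIs per barcode was 0.806, 0.803, 0.715 and 0.401 in the E15.5 maxillary, E15.5 mandibular, P1 mandibular and P1 maxillary libraries, over 1197, 1669, 655 and 1132 barcodes that share a library, and is given as a description. The share of erythroid markers among non-globin UMIs was also lowest in the lowest bin of each library, at 49.2 to 149 against 104.6 to 252 per 10000 in the higher ones. The alpha pair behaved otherwise: Hba-a2 made up 43.4% of adult alpha UMIs in the lowest bin and 43.9% in the highest in the E15.5 maxillary library, 43.3% and 44.2% in the E15.5 mandibular, 42.8% and 42.1% in the P1 maxillary, and 39.8% and 42.1% in the P1 mandibular. The last 400 bases of the transcripts share sequence within each pair, which makes the split uncertain. Of the stretches of 90 bases, the length of the RNA read, 71.1% of those of Hba-a1 were also in Hba-a2, and 48.9% of those of Hbb-bs also in Hbb-bt. None of those of Hba-x, Hbb-y or Hbb-bh1 were in another globin gene.

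**Figure D3:**
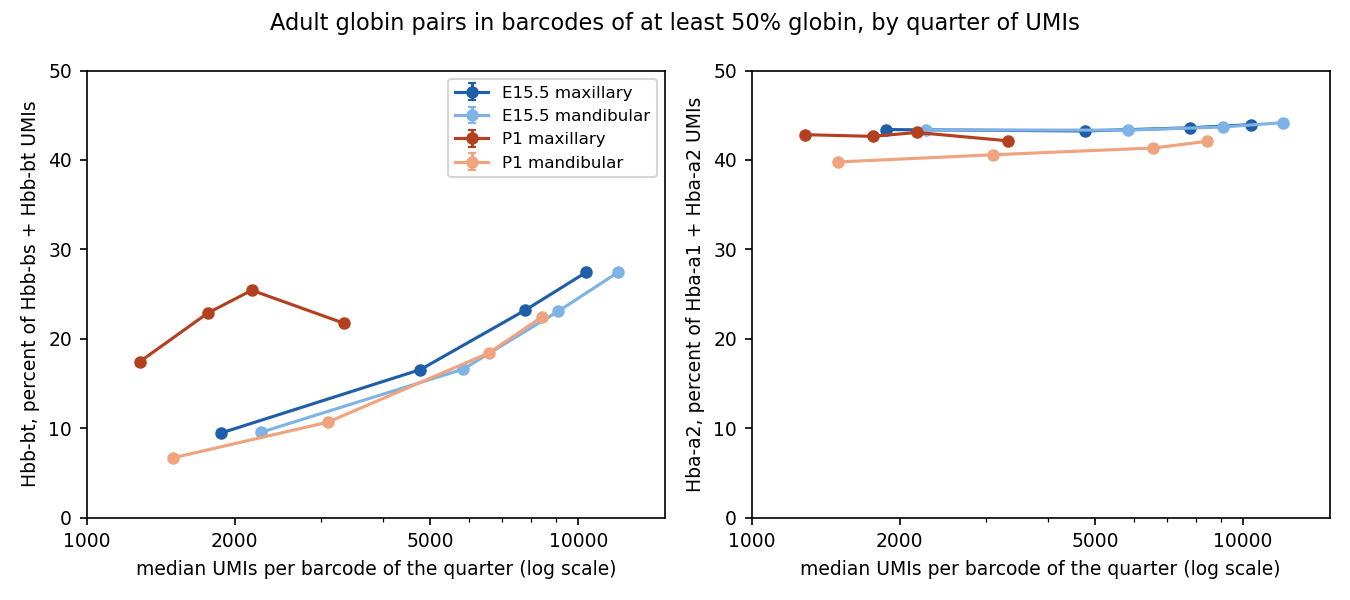
Share of Hbb-bt among adult beta UMIs (left) and of Hba-a2 among adult alpha UMIs (right), in percent, for barcodes with at least 50% globin split into 4 equal bins by UMIs and plotted at the bin's median UMIs (log axis). Hbb-bt climbs from 9.50% to 27.4%, 9.57% to 27.4% and 6.71% to 22.4% in the E15.5 and P1 mandibular libraries but turns down in the last P1 maxillary bin, and Hba-a2 stays between 39.8% and 44.2% (95% intervals are smaller than the points).

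Of 9 other globin genes, Hbb-bh2, Hbq1a, Hbq1b, Mb, Cygb and Ngb had an entry in the tables. The theta-globin genes Hbq1a and Hbq1b, which lie in the alpha cluster, were red cell genes here. Hbq1a stood at 17.7, 17.3, 19.6 and 20.1 CPM in erythroid-like cells of the E15.5 maxillary, E15.5 mandibular, P1 maxillary and P1 mandibular libraries, against at most 0.237 in other named classes. Hbq1b stood at 11.5, 11.0, 28.1 and 26.7 CPM of all UMIs, with intervals of 9.07 to 14.4 and 9.14 to 13.2 at E15.5 and of 21.1 to 36.8 and 20.8 to 33.8 at P1. The direction from E15.5 to P1 depended on the scale. Per non-globin UMIs Hbq1b stood at 182 and 276 CPM in maxillary molars but at 196 and 183 in mandibular ones, and Hbq1a was lower at P1 in both, at 279 and 192 and at 307 and 138. These genes share 20.9% and 34.1% of their 90-base stretches near the 3' end with each other. Hbb-bh2 had no UMI in erythroid-like cells of any library. Cygb, cytoglobin of connective tissue cells, had 0.768, 0, 1.59 and 3.09 CPM in erythroid-like cells and 30.2, 37.6, 23.0 and 29.3 in other named classes. Mb and Ngb, the globins of muscle and neurons, had 1 UMI between them in all erythroid-like cells.

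Genes of 6 lists of the red cell program were compared on their share of non-globin UMIs, for genes with at least 50 non-globin CPM at the higher stage and past 2-fold between stages. In the maxillary molar 2 of 48 listed genes were higher at P1 past 2-fold and 4 were lower, against 23.9% and 3.39% of the 2241 genes compared. In the mandibular molar 36 of 65 were higher and 7 lower, against 52.2% and 4.08% of 2453 genes. The median log2 change of listed genes was -0.35 for maxillary and 1.31 for mandibular molars, beside 0.46 and 1.05 for all genes compared. Among 47 genes compared in both jaws, Bcl11a and Ccnb2 were higher at P1 past 2-fold in both, and 0 were lower in both, against 10.4% and 0.556% of all 1798 genes compared in both. The lists thus gave no common direction over the jaws. The counts of each list below are to be read beside the shares of all genes of the same jaw given here.

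Of 8 heme genes, 6 were compared in the maxillary molar with 0 past 2-fold, and 8 in the mandibular with 5 higher and 1 lower. Alas2 went from 16319 to 11717 CPM in the maxillary molar and from 18596 to 9174 in the mandibular. Of 10 iron genes, 5 were compared in the maxillary molar with 0 past 2-fold, and 6 in the mandibular with 2 higher and 3 lower. The ferritin light chain gene Ftl1, the most abundant of the list at E15.5, stood at 29479, 33749.6, 18004 and 14896 CPM in the E15.5 maxillary, E15.5 mandibular, P1 maxillary and P1 mandibular libraries. Tfrc, the transferrin receptor of iron-importing precursors, stood at 55.9, 42.5, 31.2 and 335.

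Regulators were scarce. Of 18, 5 were compared in the maxillary molar with 1 higher and 0 lower, and 11 in the mandibular with 8 higher and 0 lower. Lmo2, a partner of the erythroid transcription factors and the most abundant regulator at E15.5, stood at 338, 371, 265 and 337 CPM. Bcl11a, a repressor of embryonic and fetal-type globin genes, stood at 14.6 and 6.54 CPM at E15.5 and at 57.2 and 66.4 at P1, but these are 6, 4, 11 and 25 UMIs and lie below its level in cells outside the erythroid-like clusters in every library (64.5, 36.2, 115 and 142). Sox6, another repressor of Hbb-y, stood at 117 and 93.6 in the maxillary molar and at 81.8 and 664 in the mandibular, against 204, 104, 154 and 63.9 outside the erythroid-like clusters in the same order. Klf1, the activator of the adult beta genes, had 12, 11, 1 and 43 UMIs in the E15.5 maxillary, E15.5 mandibular, P1 maxillary and P1 mandibular libraries. The high counts of Sox6 and Klf1 were from the P1 mandibular library.

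Of 17 membrane and skeleton genes, 12 were compared in the maxillary molar with 0 higher and 2 lower (Slc2a1 and Ermap), and 15 in the mandibular with 10 higher and 1 lower. Of 18 late maturation genes, 14 were compared in the maxillary molar with 0 past 2-fold, and 15 in the mandibular with 1 higher (Hemgn) and 2 lower (Bpgm and Pim1). Mkrn1, the most abundant of them, stood at 16321, 17306, 13058 and 9506 CPM in the E15.5 maxillary, E15.5 mandibular, P1 maxillary and P1 mandibular libraries. Of 12 cell cycle and early genes, 6 were compared in the maxillary molar with 1 higher and 2 lower, and 10 in the mandibular with all 10 higher. Mki67, a proliferation marker, stood at 221 and 67.6 CPM in the maxillary molar and at 155 and 630 in the mandibular. Ccnb2, a mitotic cyclin, stood at 29.2, 37.6, 72.8 and 162, from 12, 23, 14 and 61 UMIs. Outside the erythroid-like clusters it stood at 43.8, 45.9, 32.6 and 30.9, so its E15.5 values lay below the level outside.

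A few cells weighed heavily on these comparisons. Erythroid-like cells with under 50% globin numbered 3, 3, 18 and 11 in the E15.5 maxillary, E15.5 mandibular, P1 maxillary and P1 mandibular libraries and held 2.24%, 0.383%, 24.3% and 34.3% of the non-globin UMIs. Without them 2 of 43 listed genes were higher and 4 lower in the maxillary molar, against 10.8% and 6.82% of all genes, and 29 of 58 were higher and 3 lower in the mandibular, against 33.5% and 3.54%, with Ccnb2 alone higher in both. By list, 3 of 7 heme genes compared in the mandibular molar were then higher and 0 lower. Of 6 iron genes 2 were higher and 1 lower, and of 8 regulators 4 and 0. Of 15 membrane genes 11 were higher and 1 lower, of 14 late maturation genes 2 and 1, and of 8 cell cycle genes 7 and 0. Bcl11a, at 48.1 CPM at P1 in the maxillary molar, was then under the minimum of 50. Of the mandibular genes named above, Alas2, Ftl1 and Bpgm were then no longer past 2-fold, at -0.44, -0.63 and -0.44 on the log2 scale. The part of the mesenchyme markers, whose summed level was also highest in the P1 mandibular library, was not tested.

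The next set holds genes that were compared in both jaws with the same direction. At their higher stage in both jaws, 162 of them had at least 50 CPM and at least 4 times the level outside the erythroid-like clusters. Of these 22 were higher at P1, 4 of them past 2-fold in both jaws, and 140 were lower, 8 of them past 2-fold in both. Among all 1798 genes compared in both jaws 187 (10.4%) were higher and 10 (0.556%) lower past 2-fold in both. Genes entered the set by the stage at which they were high, so its counts describe it and test nothing. At the lower stage a gene could lie near or under the level outside. Acsl1 stood at 19.4 CPM against 17.3 outside in the E15.5 maxillary library, and Nudt4 at 432 against 554 in the P1 maxillary. The 10 highest were Isg15, Rsad2, Acsl1, Sept1, Hagh, Gstm5, Slfn14, Ifi27, Fam117a and Zfpm1. Isg15 and Rsad2, both induced by interferon, led with log2 changes of 3.20 and 1.72 in the maxillary molar and of 2.36 and 2.75 in the mandibular. The 10 lowest were Ikbkg, Camk1d, Il31ra, Gm19951, Lars2, Psme3, Gphn, Cmss1, Grap2 and Nudt4. Camk1d, a calcium-dependent kinase, went from 5005 to 2028 CPM in the maxillary molar and from 5738 to 2155 in the mandibular, and Lars2, a mitochondrial leucyl-tRNA synthetase, from 1978 to 718 and from 2232 to 948. Camk1d, Lars2, Il31ra, Cmss1 and Gphn were also among the 10 leading genes of the unnamed globin-rich cluster of the E15.5 mandibular library, which had a median of 1986 UMIs, and the part of RNA quality in their values was not tested.

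The higher genes depended on the shared barcodes. Isg15 had 296 UMIs in the 104 shared barcodes of the P1 maxillary library (4870 non-globin CPM) and 27 in the 444 others (205 CPM), beside 182 CPM in the E15.5 maxillary library. Without the shared barcodes the maxillary log2 change of Isg15 was 0.17 and that of Rsad2 -0.14, and of the 162 genes 0 were higher and 14 lower past 2-fold in both jaws, beside 320 higher and 15 lower of all 1878 genes then compared in both. Of the 10 lowest genes, 9 were past 2-fold lower in the maxillary molar without them, and Nudt4 was at -0.71. At the listed genes, the P1 maxillary level without them was 8379.9 non-globin CPM for Alas2, 13817 for Ftl1, 9368 for Mkrn1, 327 for Lmo2, 38.0 for Mki67 and 15.2 for Tfrc. Ccnb2 and Bcl11a, the genes higher past 2-fold in both jaws, then stood at 38.0 and 30.4, under the minimum of 50. Listed genes then were 1 higher and 10 lower of 46 compared, against 41.4% and 3.94% of 2637 genes. What makes the shared barcodes differ was not tested.

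**Figure D4:**
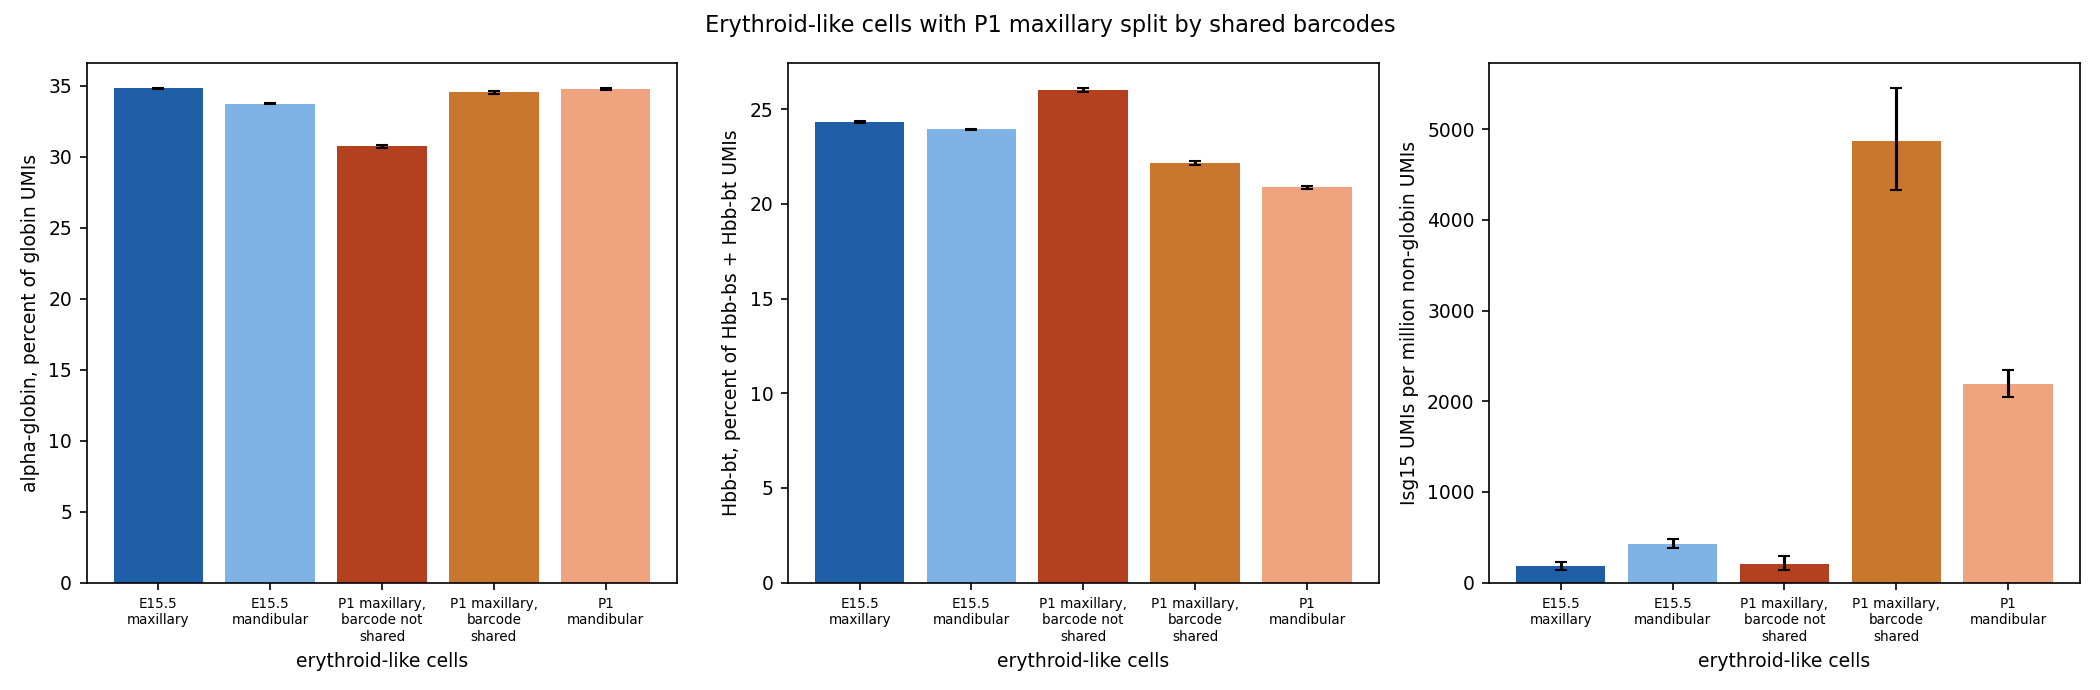
Erythroid-like cells of the E15.5 libraries, of P1 maxillary barcodes that are not or are also in the P1 mandibular library, and of the P1 mandibular library: alpha-type share of globin UMIs, Hbb-bt share of adult beta UMIs and Isg15 non-globin CPM, with exact 95% intervals. The shared barcodes have 34.6% alpha, 22.2% Hbb-bt and 4870 Isg15, and the others 30.7%, 26.0% and 205.

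Outside erythroid-like cells, globin UMIs were present in every class. All cells outside erythroid-like clusters held 18093 and 10547 globin CPM in the maxillary molar at E15.5 and P1 and 26140 and 9721 in the mandibular, a log2 change of -0.78 and -1.43. This set includes unnamed clusters, which were in part globin-rich. They held 11.3%, 9.85%, 35.7% and 20.8% of all globin UMIs of the E15.5 maxillary, E15.5 mandibular, P1 maxillary and P1 mandibular libraries. Of the globin UMIs of this set itself, they held 894724 of 1856861 (maxillary) and 1205285 of 1961735 (mandibular) at E15.5. At P1 they held 1077076 of 1325904 and 686424 of 1093931. The summed levels of this set, and their log2 changes, are therefore in large part those of unnamed clusters. Left to the named classes alone, the log2 changes were -2.30 and -1.28. The maxillary direction depended on the shared barcodes. Over all cells outside erythroid-like clusters the maxillary log2 change was 0.90 with them left out of the P1 maxillary library. It was 1.42 with them left out of both P1 libraries.

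In the named classes globin was unevenly spread over cells. Most cells, 96.7%, 97.0%, 98.5% and 97.6%, had under 1% globin, with 502 (497 to 507), 579 (573 to 585), 135 (133 to 137) and 282 (278 to 286) globin CPM. The median cell of these classes held 5, 8, 1 and 3 globin UMIs. A minority of 184, 98, 144 and 86 cells (2.46%, 2.17%, 1.02% and 1.22%) had at least 10% globin and held 91.3%, 88.4%, 83.9% and 82.6% of the globin UMIs of the named classes, and the remaining cells lay between 1% and 10%. Over the named classes together, the summed level was therefore mostly set by a few cells. This did not hold for every class. No cell had at least 10% globin among E15.5 maxillary chondrocytes and osteoclasts, P1 maxillary muscle cells, and P1 mandibular glia and pericytes.

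The low level was shared by the classes. In classes with at least 100 cells it ranged from 456 (epithelium) to 567 CPM (macrophage) in the E15.5 maxillary library and from 484 (epithelium) to 667 (macrophage) in the E15.5 mandibular. It ranged from 102 (epithelium) to 376 (chondrocyte) in the P1 maxillary and from 270.3 (mesenchyme) to 385 (muscle) in the P1 mandibular. The classes were closer together at E15.5 than in the P1 maxillary library. Globin UMIs per cell went up with depth in 3 libraries, with medians of 3, 5, 6 and 9 over 4 equal bins by UMIs in the E15.5 maxillary, 5, 7, 9 and 12 in the E15.5 mandibular and 2, 2, 3 and 4 in the P1 mandibular. In the P1 maxillary library the median was 1 in each bin. There the shared barcodes had 71.1 globin CPM in cells under 1% globin, at a median of 12458 UMIs per cell, and the others 376 at 2670 UMIs, with a median of 1 globin UMI per cell in both. Without the shared barcodes the level in cells under 1% globin was thus 376 CPM in the P1 maxillary library, below the 502 at E15.5. The log2 change of 0.90 given above is over all cells outside erythroid-like clusters, unnamed globin-rich clusters included.

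Globin made up 7.29% and 14.2% of all UMIs of the maxillary and mandibular library at E15.5 and 2.37% and 2.87% at P1. Without the shared barcodes the P1 maxillary value was 6.12%, beside 7.29% at E15.5. With them, the level in cells under 1% globin had the same order as this share over the 4 libraries, from the E15.5 mandibular down to the P1 maxillary. Without the shared barcodes the P1 maxillary level was 376 CPM, above the 282 of the P1 mandibular library. Over all cells of the named classes, and not only those under 1% globin, the adult genes gave nearly all globin RNA too. There Hbb-bs stood at 5571, 5982, 1185 and 2494 CPM in the E15.5 maxillary, E15.5 mandibular, P1 maxillary and P1 mandibular libraries. Hbb-y stood at 2.96, 0.148, 0.00862 and 0.0114 in the same cells, of which 224 of 269 UMIs in the E15.5 maxillary library were in 1 barcode of the muscle class.

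**Figure D5:**
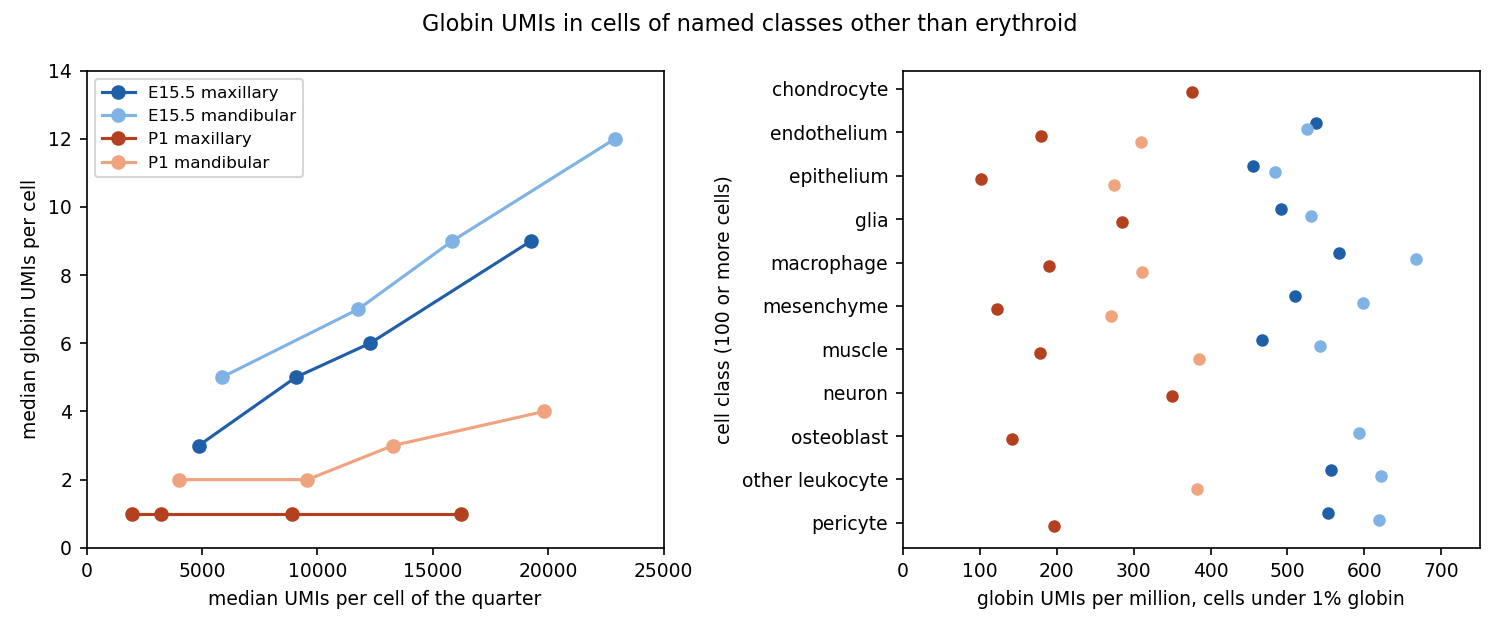
Left, median globin UMIs per cell of named classes other than erythroid, in 4 equal bins of UMIs per cell, against the bin's median UMIs. Right, globin CPM in cells with under 1% globin, for classes with at least 100 cells. The E15.5 classes lie between 456 and 667 CPM and the P1 classes between 102 and 385.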

How the data were processed

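The authors deposited, per library, whole-number UMI counts per gene and barcode, without normalization, made with Cell Ranger 7.0.1 from 10x 3' v3.1 reads aligned to mm10 and its matching 10x annotation. The 56940 deposited barcodes are fewer than the cells the study counts over its samples. Its later filters on genes, mitochondrial share and doublets were not applied. Barcodes under 1000 UMIs were left out here, as were shared barcodes from the P1 mandibular library. Each library was clustered alone without globin genes (scanpy 1.11.5; counts per 10000, 2000 variable genes, 40 components, 15 neighbours, Leiden resolution 1, igraph 0.11.9).

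A cluster took the class whose markers had the highest mean position, if at least 0.4, with at least 3 markers of at least 10 UMIs and a position of at least 0.3, and no other class leading its top 10 genes. A cluster with none of that class's markers among its top 10 genes also stayed unnamed if its depth was low. Low meant median non-globin UMIs more than 3 times below the median of the library. These thresholds were set after clusters were seen. Unnamed cells numbered 1756, 1177, 2315 and 2694 in the order E15.5 maxillary, E15.5 mandibular, P1 maxillary, P1 mandibular. Class names stand for marker-based likeness. Doublets were not removed, except in an alternative (Scrublet). Levels are summed UMIs as CPM (per 1000000 UMIs) or, for other genes, non-globin CPM. For ratios, zero counts were replaced by 3. No p-values were computed.

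Genes and lists were chosen with earlier results of these data known. Named are the 7 globins, listed genes past 2-fold the same way in both jaws or most abundant in their list, and the 10 genes of largest change each way (at least 50 CPM at the higher stage, 4 times the level outside). Other genes of the lists, such as Tfrc, Klf1, Sox6, Mki67, Slc2a1, Ermap, Hemgn, Bpgm and Pim1, were named after their values were seen. Some listed genes are not reported here. Ahsp was listed as a marker but is not among the analysed genes. Scripts were tested on simulated data with 3-fold and 4-fold changes. Of the changed genes 94.7% and 97.9% were recovered in the maxillary comparison and 97% and 100% in the mandibular. Of the unchanged genes 8.96% and 3.57% also passed 2-fold (maxillary and mandibular), with median log2 changes of -0.37 and -0.32. Alternatives were the UMI minimum, the choice of erythroid cells, shared barcodes, doublets, mitochondrial share, thinning, equal weight of cells, scaling and level minimum. Further ones, chosen after seeing the data, left out the top embryonic cell or shared barcodes or used globin content.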

Additional observations from a re-analysis of the deposited data

Results flagged for a closer look

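The alpha-type share of globin UMIs in erythroid-like cells moved in opposite directions in the jaws. P1 minus E15.5 was -2.28 percentage points for maxillary and 1.07 for mandibular molars. The difference between the jaws was not tested, since each stage and jaw had 1 library.

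The red cell membrane gene Ermap and the proliferation genes Mki67 and Pcna also had opposite signs past 2-fold, and the difference was not tested. On the log2 scale Ermap was at -1.71 for maxillary and 4.29 for mandibular molars, Mki67 at -1.71 and 2.02, and Pcna at -1.09 and 2.19. The P1 maxillary values of these genes rest on 3, 13 and 7 UMIs. The maxillary counting intervals included no change for Ermap (-4.10 to 0.03) and Pcna (-2.52 to 0.11) but not for Mki67 (-2.67 to -0.86). In erythroid-like cells of at least 50% globin, Pcna was at 0.65 in mandibular molars, no longer past 2-fold, and Ermap was under the level minimum in maxillary ones.

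Barcodes under 1000 UMIs, which entered none of the comparisons of the main analysis, also held Hbb-y RNA at E15.5. In the E15.5 maxillary library 3 such barcodes held 623 Hbb-y UMIs and in the E15.5 mandibular 1 held 162, while barcodes under 1000 UMIs of the P1 libraries held 0. Their Hba-x share of alpha-type UMIs was 39.3% to 96.7%, and Hbb-y made up 93.1% to 97.7% of beta-type UMIs.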

How the results depend on the processing

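Of 69 alternative values for 6 results (the log2 ratio of embryonic to adult globin, the log2 level outside erythroid-like clusters and the count of listed genes past 2-fold, each per jaw), 29 stayed within the interval or within 1.5 times, 38 moved and 2 reversed. The reported values were -7.46, -0.78 and 6 for maxillary and -7.91, -1.43 and 43 for mandibular molars. The embryonic ratio became -0.61 and -2.67 (maxillary and mandibular) with single cells chosen by marker share, -1.34, -1.40 and -0.89 in the maxillary molar with a minimum of 2000 UMIs, without called doublets and with a mitochondrial limit, -0.68 and -2.87 without the top cell, and -5.01 in the mandibular with thinning, where P1 is at 0. In these 3 maxillary settings reclustering left the top cell outside the erythroid-like clusters. Elsewhere it stayed between -8.32 and -6.45 and between -10.55 and -7.91. The level outside reversed to 1.42 with shared barcodes left out of both P1 libraries and 0.90 with them left out of the P1 maxillary. It was -1.70 and -1.88 with cells chosen by marker share, -4.17 and -2.37 from 2000 UMIs, -2.02 and -1.41 with no minimum, -1.80 and -1.40 without doublets, -4.27 and -1.77 with the mitochondrial limit, -0.20 and -1.40 both with thinning and as a mean over cells, -2.30 and -1.28 in named classes, -1.89 and -1.04 in their cells under 1% globin, and -2.65 in the mandibular with shared barcodes kept. Listed genes past 2-fold in the maxillary molar numbered 21 from 2000 UMIs (2 higher and 19 lower, beside 26.2% and 8.09% of all genes), 11 with no minimum (0 and 11, beside 27.1% and 3.67%), 19 and 11 without shared barcodes in both P1 libraries (14 and 5, beside 22.2% and 13.5%) or in the maxillary one (1 and 10, beside 41.4% and 3.94%), 10 without doublets (2 and 8, beside 7.96% and 13.9%), 28 with the mitochondrial limit (1 and 27, beside 30.5% and 8.59%) and 16 at 20 CPM (6 and 10, beside 34.4% and 5.52%). At 200 CPM they were 1 in the maxillary molar (0 higher and 1 lower, beside 9.72% and 1.68%) and 21 in the mandibular (14 and 7, beside 28.4% and 12.1%), and in CPM of all UMIs 0 (beside 27.3% higher) and 11 (11 higher of 27, beside 61.5%). The causes were not tested. No paired analysis was possible because each group had 1 library, and no value came from a test. Changes between stages were computed within each jaw.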

Other observations

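Hba-x RNA was also seen in barcodes with few other globin UMIs. In the P1 maxillary library all 89 globin UMIs of a mesenchyme barcode, with 2391 UMIs in all, were Hba-x. In the E15.5 maxillary library Hba-x gave 84 of 88 globin UMIs of a mesenchyme barcode, 50 of 57 and 12 of 25 of unnamed ones, and 23 of 44 of an endothelium one. In the P1 mandibular library it gave 13 of 25 in an unnamed barcode, and in the E15.5 mandibular 30 of 48 in a barcode under 1000 UMIs. These barcodes were picked out after their counts were seen, and each is 1 barcode. All but the P1 mandibular one, with 2 UMIs, had 0 UMIs of erythroid markers. An erythroid-like cell of the E15.5 maxillary library held 10 Hbb-bh1 UMIs with 0 of Hbb-y and Hba-x.

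Unnamed globin-rich clusters had less Hbb-bt among adult beta UMIs than the erythroid-like clusters of their library. The values were 9.96% against 21.2% and 26.8% in the E15.5 maxillary library, 10.1% against 18.7% to 27.3% in the E15.5 mandibular, 19.0% against 24.2% in the P1 maxillary and 8.70% against 20.9% in the P1 mandibular. In the P1 mandibular unnamed cluster 42.0% of globin UMIs were alpha-type, against 34.8% in its erythroid-like cluster. These clusters had median UMIs of 1890.5, 1986, 1665.5 and 2314.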
